A study of Mus musculus with 24 samples.

Results

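The genes described here are 10 UDP-glycosyltransferases of mouse liver, Ugt1a1, Ugt1a9, Ugt2a3, Ugt2b1, Ugt2b5, Ugt2b34, Ugt2b35, Ugt2b36, Ugt2b38 and Ugt3a2. They were chosen by name from the 34436 gene symbols of a table of raw read counts, which held 21 Ugt symbols in all. All 10 were in the table and all 10 had enough reads to be tested. Whole-liver total RNA came from wild-type C57BL/6 mice that were 8 to 10 weeks old when their diet began and stayed on it for 8 weeks. The diets were normal chow (NC, 4 libraries), a high-sucrose diet (HS, 5), the sucrose diet plus 2% cholesterol (HS_Chol, 3), cholic acid alone (CA, 4), and 2% cholesterol plus cholic acid, for which the label names no sucrose (Chol_CA, 4). The labels give no dose of cholic acid or sucrose and no sex, and they number the livers without saying that each came from a separate animal, so p-values measure the spread between these samples. A sixth labelled diet, which joins sucrose, cholesterol and cholic acid, was not analysed here. Libraries carry the numbers of the table, which start at 0.

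UDP-glycosyltransferases sit in the membrane of the endoplasmic reticulum and join a sugar to small fat-soluble molecules, so that these can leave the cell and the body in bile or urine. The UGT1 and UGT2 enzymes use glucuronic acid, donated by UDP-glucuronate, and act on bilirubin, steroids, bile acids, phenols and many drugs. Human UGT3A2 uses other UDP-sugars, so the name glucuronosyltransferase does not describe Ugt3a2 from what is known in that species. Ugt3a2 has a paragraph of its own below, but the counts, medians and sums of the members include it. Hepatocytes are the main site of these enzymes in the liver, and several of the genes are known targets of nuclear receptors that sense bile acids, fatty acids and foreign compounds.

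All Ugt1a genes lie in 1 locus on chromosome 1 (GRCm38), in which each gene has a first exon of its own that is joined to the same 4 further exons. The junctions of Ugt1a1 and Ugt1a9 are shown because they mark where a read stops being informative about the gene. Lower case is the last part of exon 1, at chr1:88212832-88212871 for Ugt1a1 and chr1:88071639-88071678 for Ugt1a9, and capitals are the start of the shared exon 2 at chr1:88215044-88215083, all on the plus strand.
Ugt1a1: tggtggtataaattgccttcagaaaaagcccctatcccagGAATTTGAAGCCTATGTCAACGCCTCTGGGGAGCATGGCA
Ugt1a9: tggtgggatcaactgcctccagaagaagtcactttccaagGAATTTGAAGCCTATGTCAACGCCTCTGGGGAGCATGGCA
The exon of its own held 913 of the 2224 exon bases of Ugt1a1 and 879 of the 2190 of Ugt1a9. Of all 50-base windows of their transcripts, the read length used, 58.2% (Ugt1a1) and 62.0% (Ugt1a9) also occurred in another gene. A read from such a window cannot be given to 1 Ugt1a gene, so the values below rest mainly on the first exons. The coding sequences of Ugt1a1 and Ugt1a9 were 77.3% identical.

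The Ugt2a and Ugt2b genes form a cluster on chromosome 5, where all members lie on the minus strand except Ugt2b35. Ugt2b5 and Ugt2b38 are the closest pair, differing at 47 of 1590 coding bases, and 34.8% of the 50-base windows of Ugt2b5 also occurred in Ugt2b38. The stretch from coding base 1467 to 1526, on the minus strand, was chosen as the 60 bases inside an exon where they differ most. Bases that differ from Ugt2b5 are in capitals. It lies at chr5:87125280-87125339 in Ugt2b5 and chr5:87410275-87410334 in Ugt2b38.
Ugt2b5: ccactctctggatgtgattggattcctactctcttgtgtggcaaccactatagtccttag
Ugt2b38: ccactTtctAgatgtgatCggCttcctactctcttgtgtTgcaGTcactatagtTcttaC
In this stretch Ugt2b38 differed from Ugt2b5 at 9 bases. The windows shared with any other gene made up 41.7% of Ugt2b5 and 37.4% of Ugt2b38 and at most 7.01% of each other member outside the Ugt1a locus, so the levels of Ugt2b5 and Ugt2b38 are the less certain ones of the cluster. Ugt3a2 lies on chromosome 15.

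Total reads per library ran from 6110484 to 10244277. Within diets, libraries differed in how strongly a gene's reads went with the length of its transcript. The trend was measured on deviations from each gene's mean over the 20 libraries, so its sign is relative to these libraries. The slopes nearest 0 were -0.0219 (HS_Chol library 0) and 0.0204 (CA library 3), which fall on different sides of the cut. This trend was negative in 8 libraries (NC library 3, HS libraries 0, 1 and 2, HS_Chol library 0, CA library 0, and Chol_CA libraries 0 and 1) and positive in the other 12, and calls of members that differ without the 8 are given beside the result. The 12 were 3 of NC, 2 of HS, 2 of HS_Chol, 3 of CA and 2 of Chol_CA. The summed level of 7 hepatocyte marker genes lay between 77688 and 123212 CPM in every library, where CPM are reads scaled to a common library size of 1e6 reads, and kidney markers reached at most 0.243 CPM, with Kap and Slc12a1 at 0 throughout. Marker sums in this paragraph were scaled by total reads, while the levels of members below were scaled by effective library size. The normalization factors of the effective size ran from 0.885 to 0.941 in NC and from 1.10 to 1.23 in Chol_CA. Beside hepatocyte markers at 113649 to 123212 CPM in NC and 77688 to 82927 CPM in Chol_CA, the summed markers of Kupffer cells and macrophages were at 69.5 to 95.4 CPM in NC, 188 to 540 in CA and 745 to 1803 in Chol_CA. All 7 macrophage markers were called higher in CA and in Chol_CA against NC. Of the 7 hepatocyte markers, 1 was called lower in CA (Serpina1a) and 3 in Chol_CA (Alb, Ttr and Apoa2), with a median log2 fold change over the 7 of -0.42 in CA and -0.41 in Chol_CA. The 5 lymphocyte markers, called higher in Chol_CA and not in CA, summed to 0.921 to 4.39 CPM in NC and 6.86 to 45.8 CPM in Chol_CA. None of the 5 endothelial markers was called in either diet. Of the markers of small intestine and of pancreas 1 each could be tested, and that of pancreas, Cela1, was called lower in Chol_CA. The summed markers of bile duct cells were at 51.9 to 88.2 CPM in NC and 137 to 450 in Chol_CA, and those of stellate cells at 189 to 387 and 498 to 939. Of 6 bile duct markers tested in Chol_CA against NC, 2 were called higher (Sox9 and Spp1). Epcam (0.90), Cldn7 (1.03), Krt7 (-0.07) and Krt19 (-0.55) were not called. Of 7 stellate markers 3 were called higher there (Col1a1, Col1a2 and Col3a1), while Lrat, Des, Reln and Dcn were not called. In such bulk samples fewer hepatocytes and less RNA per hepatocyte cannot be told apart, and the part of these shifts in the results below was not tested.

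On chow the members spanned a wide range of levels. Compared as mean CPM per kilobase of exon that belongs to no other gene, Ugt2b5 (332 ± 29.8 SD, n = 4), Ugt2b36 (320 ± 31.5) and Ugt1a1 (306 ± 108) stood highest. Ugt2b1 followed at 247, Ugt2b34 at 135, Ugt3a2 at 102 and Ugt2a3 at 101. Ugt2b35 was lower at 39.8, Ugt1a9 at 23.5 and Ugt2b38 lowest at 6.63. The ranges of neighbours overlapped for the first 4, for Ugt3a2 and Ugt2a3, and for the last 3. On the CA diet the same measure put Ugt1a1 at 546 ± 323 and Ugt1a9 at 105 ± 65.5. Summed over the 10 genes, the level without regard to length was 3469 ± 270 CPM in NC, 2828 ± 399 in HS (n = 5), 3221 ± 192 in HS_Chol (n = 3), 3961 ± 856 in CA and 2417 ± 359 CPM in Chol_CA. In every diet Ugt2b1, Ugt2b5, Ugt2b34 and Ugt2b36 together supplied most of these reads.

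**Figure D1:**
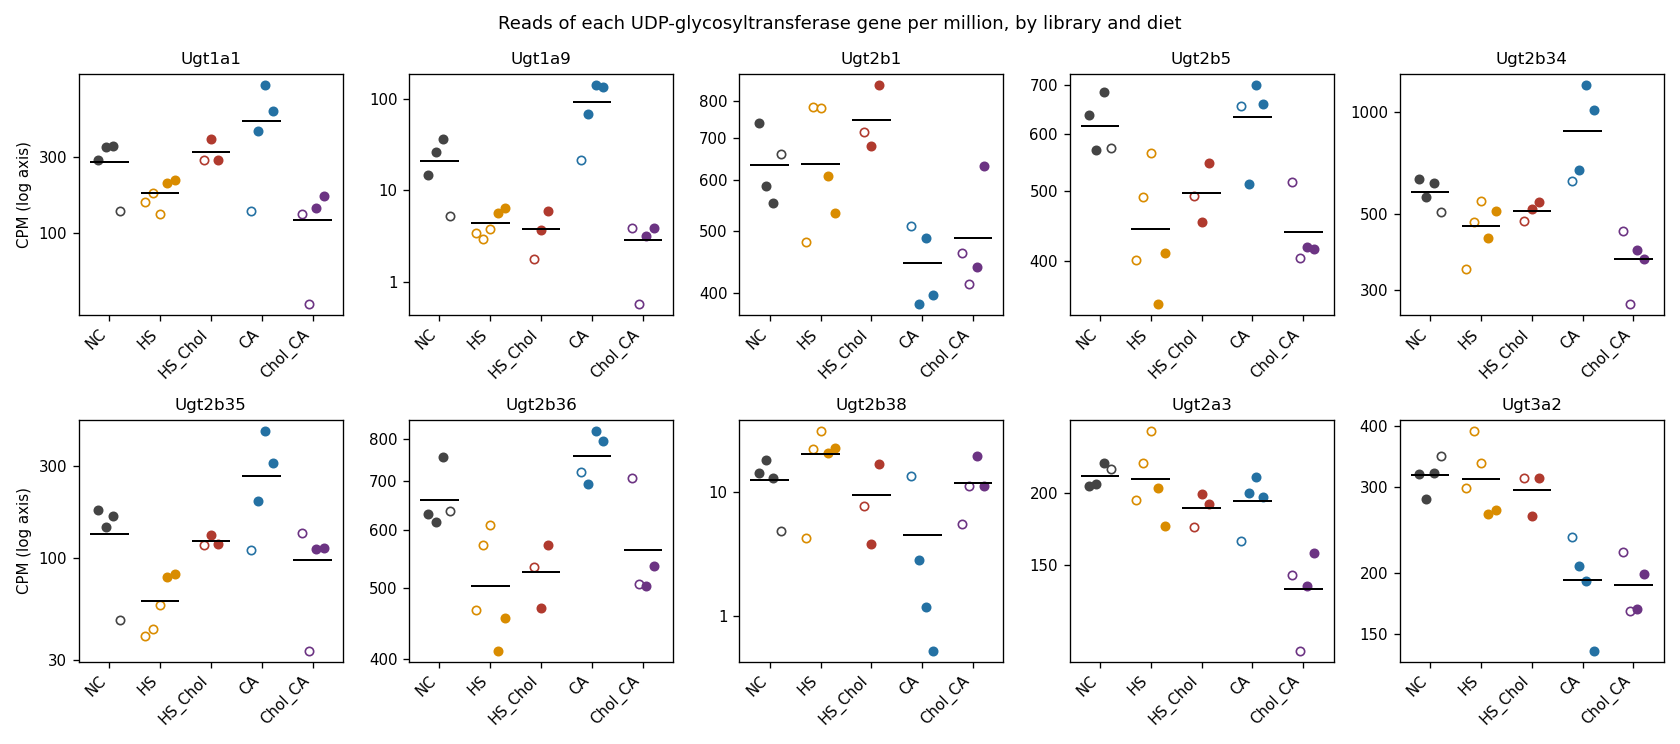
Level of each gene in CPM (log axis, different for each panel) in every library, by diet, with a black line at the diet's mean. Open circles are the 8 libraries of negative length trend, which is measured against the mean of the 20 libraries. Ugt1a9 spans the widest range, from 0.573 CPM in a Chol_CA library to 143 CPM in a CA library.

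In CA against NC, 1 of 10 members was called higher (Ugt1a9) and 1 lower (Ugt3a2) at an adjusted p under 0.05, while 5.22% of all 12595 genes tested were called higher and 4.61% lower. In Chol_CA against NC, 6 members were called lower (Ugt1a9, Ugt3a2, Ugt2a3, Ugt2b34, Ugt2b5 and Ugt1a1) and 0 higher, against 9.35% of all genes called lower and 15.0% higher. In the libraries of positive length trend alone, 7 members were called in each of these comparisons, 4 higher and 3 lower in CA and 7 lower in Chol_CA. Of the 12421 genes tested there, 1521 were called higher and 1445 lower in CA, and 1577 and 1489 in Chol_CA. All 10 members had a negative log2 fold change in Chol_CA against NC, though that of Ugt2b38 changed sign in 4 of 15 alternatives, with a median of -0.57 beside -0.00 over all genes. In Chol_CA against CA, which sets cholesterol with cholic acid against cholic acid, 7 were lower and 0 higher, against 7.8% of all genes called lower and 13.4% higher, and the median log2 fold change was -0.52 beside 0.02. These comparisons share libraries with each other and are not independent.

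The sucrose diets gave 0 called members by edgeR. In HS against NC, where 0.651% of all genes were called in either direction, 4 members had an unadjusted p under 0.05, all lower (Ugt1a9, Ugt2b5, Ugt2b36 and Ugt2b35), and DESeq2 called 2 of them lower (Ugt1a9 and Ugt2b5). In HS_Chol against NC, with 2.28% of all genes called, 2 members had an unadjusted p under 0.05 (Ugt1a9 and Ugt2b36, both lower) and DESeq2 called Ugt1a9 lower. Of all 12595 genes DESeq2 called 60 higher and 145 lower in HS against NC, and 355 and 163 in HS_Chol against NC. In HS_Chol against HS, with 2.25% of all genes called, 1 member had an unadjusted p under 0.05 (Ugt2b35, higher) and DESeq2 called 0. The medians of the members' log2 fold changes in these 3 comparisons were -0.36, -0.18 and 0.11, beside 0.02, 0.00 and 0.01 over all genes.

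**Figure D2:**
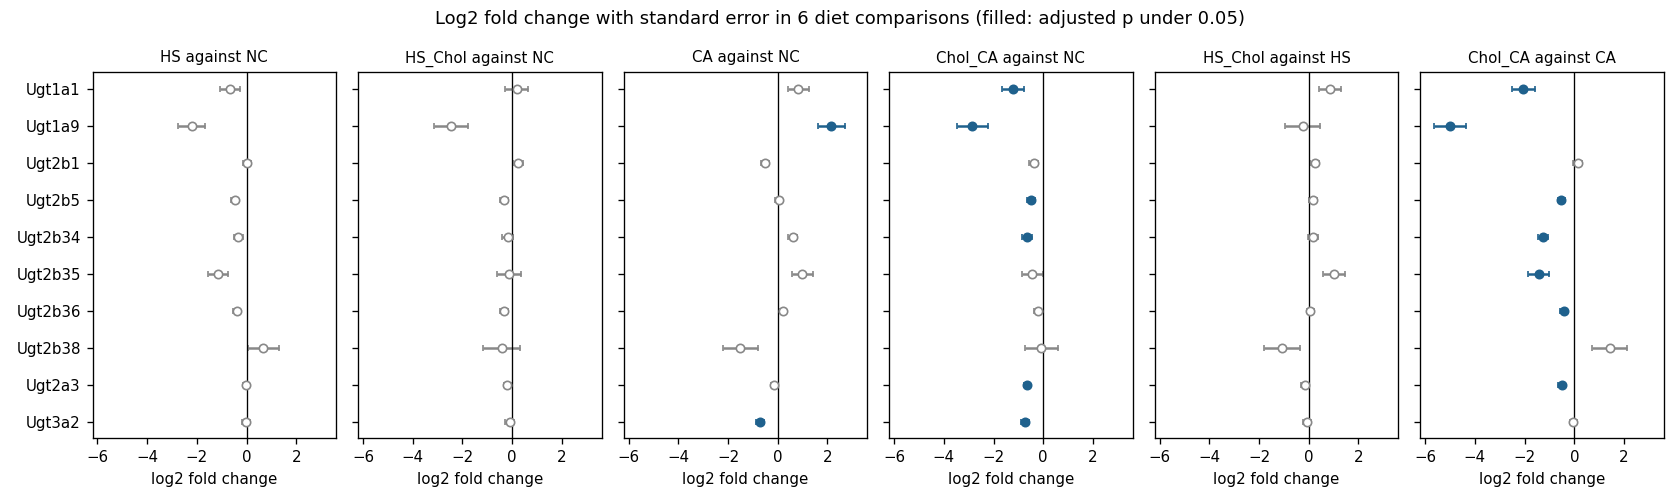
Log2 fold change of each gene with its standard error in 6 comparisons. Filled points passed an adjusted p of 0.05. The filled points lie right of 0 only for Ugt1a9 in CA against NC, and the 7 filled points of Chol_CA against CA all lie left of 0.

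Ugt1a1 makes the enzyme that conjugates bilirubin, the breakdown product of heme, and its loss causes unconjugated jaundice in people. Its level was 287, 344, 349 and 138 CPM in NC libraries 0 to 3 and 137, 435, 843 and 580 CPM in CA libraries 0 to 3. In Chol_CA libraries 0 to 3 it was 132, 36.3, 144 and 170 CPM. The low libraries of NC and CA, library 3 and library 0, both had a negative length trend, and they brought the ranges of all 3 diets into overlap. Ugt1a1 was 4.13-fold lower in Chol_CA than in CA (log2 fold change -2.05 ± 0.45 SE, adjusted p = 0.00285), a call that held in all 15 alternatives. Against NC, Chol_CA was 2.32-fold lower (-1.21 ± 0.44, adjusted p = 0.0498), and this call was lost in 8 of 15 alternatives, with adjusted p up to 0.132 (without Chol_CA library 1) and also without NC library 0, 1 or 2 or Chol_CA library 0 or 2. The value for CA against NC, 0.84 ± 0.43, did not pass (adjusted p = 0.275). Within the libraries of positive length trend it was 0.92 ± 0.21 and passed (adjusted p = 0.00900).

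In the sucrose diets Ugt1a1 read 155, 177, 132, 206 and 213 CPM in HS libraries 0 to 4 and 287, 384 and 287 CPM in HS_Chol libraries 0 to 2. The HS_Chol libraries all lay above the HS libraries, but the difference of 0.85 ± 0.44 on the log2 scale did not pass over all genes (adjusted p = 0.419). A gene model on the opposite strand, Gm20528, overlaps 922 exon bases of Ugt1a1. It had 286 to 411 reads in the HS_Chol libraries, or 16.2 to 21.5 per 100 reads of Ugt1a1, and 2 to 98 reads elsewhere, at most 5.05 per 100. The HS_Chol libraries also had more reads of the mitochondrial tRNA genes of the light strand, 673 to 900 per 1e6 reads of heavy-strand mRNAs against 8.95 to 83.4 in the other diets. The part of reads from the opposite strand in the Ugt1a1 level of HS_Chol, and in the other comparisons that use HS_Chol, was not tested.

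Ugt1a9, whose human counterpart conjugates phenols and many drugs, showed the widest span between diets. It read 14.8, 26.0, 36.6 and 5.25 CPM in NC libraries 0 to 3. In CA libraries 0 to 3 it read 21.6, 68.8, 143 and 135 CPM, and in Chol_CA libraries 0 to 3 it read 3.84, 0.573, 3.13 and 3.90 CPM. Every Chol_CA library lay below every NC and CA library, while CA library 0, with a negative length trend, lay inside the NC range. Ugt1a9 was 4.45-fold higher in CA than in NC (2.15 ± 0.54, adjusted p = 0.0128). This call was lost without a filter on low counts, with the compared diets fitted alone and without NC library 0 (adjusted p = 0.0522), with adjusted p up to 0.0639. It was 7.22-fold lower in Chol_CA than in NC (-2.85 ± 0.62, adjusted p = 0.00162) and 32.1-fold lower in Chol_CA than in CA (-5.01 ± 0.64, adjusted p = 3.13e-05), and both calls held in all 15 alternatives. The Chol_CA values rest on few reads, between 5 and 36 per library.

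Both sucrose diets had low Ugt1a9 too, with 3.42, 2.93, 3.76, 5.58 and 6.45 CPM in HS libraries 0 to 4 and 1.76, 3.63 and 5.91 CPM in HS_Chol libraries 0 to 2. Only NC library 3 lay inside these ranges. The differences from NC, -2.22 ± 0.56 for HS (adjusted p = 0.0861) and -2.46 ± 0.69 for HS_Chol (adjusted p = 0.0680), did not pass. Without NC library 3 both passed, as they did by DESeq2, and that for HS_Chol also passed within the libraries of positive length trend (-2.45 ± 0.55, adjusted p = 0.0447).

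Ugt1a5, whose first exon lies between those of Ugt1a9 and Ugt1a1, read 47.5 ± 3.59 CPM in NC, 27.7 ± 7.57 in HS, 13.1 ± 9.75 in HS_Chol, 15.6 ± 7.08 in CA and 3.33 ± 2.28 CPM in Chol_CA. It was lower in CA than in NC (-1.60 ± 0.43, adjusted p = 0.0202), lower in Chol_CA than in NC (-3.80 ± 0.49, adjusted p = 1.04e-05) and lower in Chol_CA than in CA (-2.20 ± 0.48, adjusted p = 0.00280), so that in CA it moved opposite to Ugt1a9 of the same locus. It was also lower in HS_Chol than in NC (-1.85 ± 0.49, adjusted p = 0.0497). Ugt1a6a, whose human counterpart conjugates simple phenols, fell in Chol_CA against NC (-0.98 ± 0.27, adjusted p = 0.0104). Ugt1a2, Ugt1a7c, Ugt1a8 and Ugt1a10 stayed under 1.5 CPM on average in each diet. Of the 6 Ugt symbols outside the members that could be tested, 0 were higher and 1 lower in CA against NC, and 1 was higher and 3 lower in Chol_CA against NC. In HS_Chol against NC 1 was lower (Ugt1a5) and 0 higher. The higher one was Ugt2b37 (2.01 ± 0.58, adjusted p = 0.0148), at 1.43 CPM in NC and 5.77 CPM in Chol_CA, and the third lower one was Ugt3a1 (-1.72 ± 0.34, adjusted p = 0.000697).

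**Figure D3:**
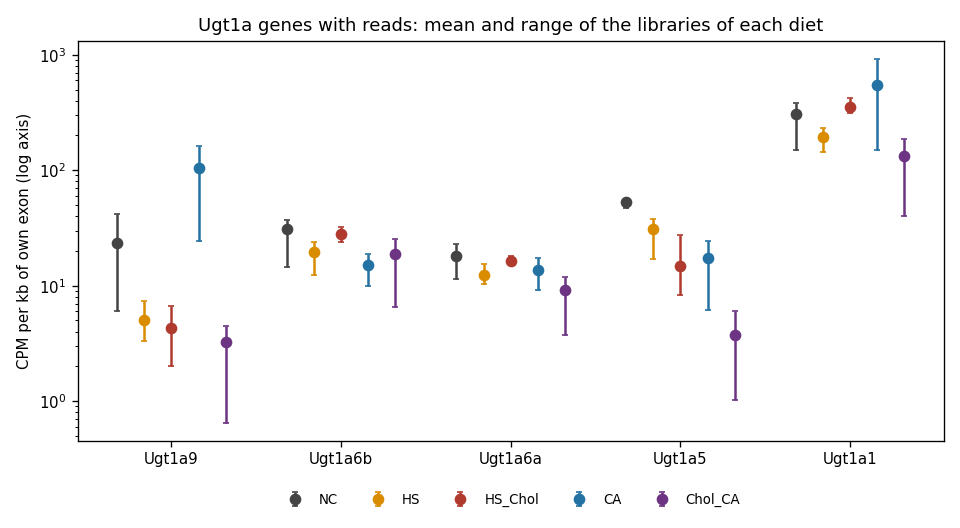
Level of the 5 Ugt1a genes with the most reads, as CPM per kilobase of exon of their own (log axis), with the mean and the range of the libraries of each diet. Ugt1a1 is highest throughout, and Ugt1a9 is at 105 in CA while Ugt1a5 is at 17.5.

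Ugt2b34 and Ugt2b35 had their highest mean in CA, as Ugt1a1, Ugt1a9, Ugt2b5 and Ugt2b36 did. Ugt2b34 read 635, 563, 616 and 508 CPM in NC libraries 0 to 3. In CA libraries 0 to 3 it had 625, 675, 1203 and 1013 CPM, and in Chol_CA libraries 0 to 3 it had 446, 273, 393 and 369 CPM. The sucrose diets gave 346, 474, 546, 425 and 511 CPM (HS libraries 0 to 4) and 477, 517 and 543 CPM (HS_Chol libraries 0 to 2). The Chol_CA libraries lay below all those of NC and CA, while CA library 0 lay inside the NC range. Ugt2b34 was 2.37-fold lower in Chol_CA than in CA (-1.25 ± 0.20, adjusted p = 0.000249), in all 15 alternatives. It was also 1.57-fold lower in Chol_CA than in NC (-0.65 ± 0.20, adjusted p = 0.0185), a call lost without NC library 0 (adjusted p = 0.0545), NC library 2 (0.0503) or Chol_CA library 1 (0.0739). In CA against NC the value was 0.60 ± 0.20 and missed the threshold (adjusted p = 0.0594). It passed in 6 of 15 alternatives, among them the libraries of positive length trend (0.67 ± 0.16, adjusted p = 0.00990).

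Ugt2b35 read 178, 145, 165 and 48.0 CPM in NC libraries 0 to 3, 110, 198, 451 and 309 CPM in CA libraries 0 to 3 and 136, 33.6, 111 and 114 CPM in Chol_CA libraries 0 to 3. The ranges of all 3 diets overlapped. It was 2.71-fold lower in Chol_CA than in CA (-1.44 ± 0.44, adjusted p = 0.0231), which was lost in 4 of 15 alternatives, among them without CA library 2 (adjusted p = 0.101) or Chol_CA library 1 (0.0662). Against NC neither CA (1.00 ± 0.43, adjusted p = 0.174) nor Chol_CA (-0.44 ± 0.43, adjusted p = 0.511) passed. Within the libraries of positive length trend CA against NC did pass (0.97 ± 0.23, adjusted p = 0.0144). In HS libraries 0 to 4 Ugt2b35 read 40.1, 43.2, 57.6, 79.9 and 82.8 CPM and in HS_Chol libraries 0 to 2 it read 117, 132 and 119 CPM, above every HS library, with a difference of 1.01 ± 0.44 that did not pass (adjusted p = 0.318).

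Ugt2b5 and Ugt2b36, members of the family that conjugates steroids and other lipophilic molecules, were the most abundant per kilobase on chow and changed less. Ugt2b5 read 637, 570, 685 and 573 CPM in NC libraries 0 to 3, 655, 511, 702 and 661 CPM in CA and 516, 404, 418 and 416 CPM in Chol_CA libraries 0 to 3. All Chol_CA libraries lay below all NC libraries, and Chol_CA library 0 lay just above CA library 1. Ugt2b5 was 1.41-fold lower in Chol_CA than in NC (-0.49 ± 0.15, adjusted p = 0.0181) and 1.44-fold lower than in CA (-0.53 ± 0.15, adjusted p = 0.0143). The first call was lost without NC library 0 (adjusted p = 0.0547) or 2 (0.0772) or Chol_CA library 1 (0.0558) or 2 (0.0542), and the second with the compared diets fitted alone (0.0513). Ugt2b36 read 631, 615, 756 and 637 CPM in NC, 719, 693, 818 and 794 CPM in CA and 707, 506, 503 and 535 CPM in Chol_CA libraries 0 to 3. Chol_CA library 0 stood apart from the other 3 and inside the range of NC and CA. Ugt2b36 was 1.34-fold lower in Chol_CA than in CA (-0.43 ± 0.14, adjusted p = 0.0396), a call lost in 6 of 15 alternatives, with adjusted p up to 0.121 (without Chol_CA library 2) and also without CA library 2 or 3 or Chol_CA library 1. Against NC it did not pass in Chol_CA (-0.23 ± 0.14, adjusted p = 0.280), but it did within the libraries of positive length trend (-0.38 ± 0.13, adjusted p = 0.0441) and without Chol_CA library 0.

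In the sucrose diets Ugt2b5 read 401, 491, 565, 349 and 411 CPM (HS libraries 0 to 4) and 492, 453 and 547 CPM (HS_Chol libraries 0 to 2). Ugt2b36 read 467, 573, 609, 410 and 455 CPM in HS and 533, 469 and 573 CPM in HS_Chol. For both genes every library of both diets lay below every NC library, yet none of the 4 differences passed over all genes. They were -0.47 ± 0.14 for Ugt2b5 and -0.39 ± 0.14 for Ugt2b36 in HS (adjusted p = 0.155 and 0.256), and -0.31 ± 0.16 and -0.33 ± 0.16 in HS_Chol (adjusted p = 0.488 and 0.421). Within the libraries of positive length trend both passed in HS, at -0.73 ± 0.14 (adjusted p = 0.0164) and -0.62 ± 0.13 (adjusted p = 0.0196).

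Across the 20 libraries the log2 CPM of Ugt2b5 and Ugt2b36 had a Pearson r of 0.91, the highest of the 45 pairs of members. Their promoters are shown because they share a run of bases just before the gene's start. They come from RefSeq (GRCm38.p6), cover the 150 bases before the start on the minus strand, at chr5:87140341-87140490 for Ugt2b5, chr5:87092556-87092705 for Ugt2b36 and chr5:87424204-87424353 for Ugt2b38, and have AGGTCA, a building block of nuclear receptor sites, in capitals.
Ugt2b5: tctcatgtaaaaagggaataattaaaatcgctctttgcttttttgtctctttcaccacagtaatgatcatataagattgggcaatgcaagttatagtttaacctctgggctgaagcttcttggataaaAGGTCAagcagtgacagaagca
Ugt2b36: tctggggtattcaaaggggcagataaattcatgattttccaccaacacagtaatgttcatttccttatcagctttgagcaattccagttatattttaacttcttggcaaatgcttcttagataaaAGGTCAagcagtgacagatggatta
Ugt2b38: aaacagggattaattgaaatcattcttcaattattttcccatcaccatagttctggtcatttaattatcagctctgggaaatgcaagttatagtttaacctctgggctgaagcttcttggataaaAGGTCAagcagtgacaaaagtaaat
The run gataaaaggtcaagcagtgaca, 22 bases long, occurred in 4 of 32851 promoters, those of these 3 genes and of Ugt2b37. The log2 CPM of Ugt2b38 had an r of -0.33 with Ugt2b5 and -0.48 with Ugt2b36. Whether the run has a part in any of these correlations was not tested.

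Motifs were searched as exact letters on both strands in the 9 promoters found (Ugt3a2 had no entry), each from 250 bases before to 50 after the start. AGGTCA was in 5 of 9, those of Ugt1a9, Ugt2b35, Ugt2b36, Ugt2b5 and Ugt2b38, and in 16.3% of all 32851 promoters. In Ugt2b36, Ugt2b5 and Ugt2b38 it lies inside the run that they share, so these matches are not independent of each other. GTTAAT, a part of the motif of the liver factor HNF1, was in 3 of 9, those of Ugt1a1, Ugt1a9 and Ugt2a3, and in 7.10% of all promoters. The core bound by the Ah receptor, GCGTG, and the core of the antioxidant response element were in 0 of 9, and in 32.4% and 12.4% of all. An inverted repeat of AGGTCA with 1 base between was also in 0 of 9 and in 0.00910% of all. The first exons of Ugt1a1 and Ugt1a9 have promoters of their own, shown with GTTAAT or its complement in capitals, on the plus strand at chr1:88211809-88211958 and chr1:88070629-88070778.
Ugt1a1: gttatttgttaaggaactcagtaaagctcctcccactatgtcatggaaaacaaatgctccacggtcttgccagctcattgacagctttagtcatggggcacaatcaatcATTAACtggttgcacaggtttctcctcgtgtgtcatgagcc
Ugt1a9: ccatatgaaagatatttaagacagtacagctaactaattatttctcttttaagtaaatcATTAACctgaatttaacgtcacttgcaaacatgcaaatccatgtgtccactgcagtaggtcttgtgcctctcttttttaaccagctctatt
A match is a description of the letters and does not show that a factor was bound there.

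Ugt2b1 and Ugt2b38 did not share the pattern of the other Ugt2b genes. Ugt2b1, whose rat counterpart conjugates steroids and phenols, read 738, 589, 553 and 659 CPM in NC libraries 0 to 3, 509, 384, 488 and 396 CPM in CA and 462, 413, 439 and 632 CPM in Chol_CA libraries 0 to 3. The CA libraries all lay below the NC libraries. The difference, -0.51 ± 0.17, missed the threshold (adjusted p = 0.0710) and passed in 3 of 15 alternatives, among them the libraries of positive length trend (-0.57 ± 0.16, adjusted p = 0.0181). Chol_CA against NC gave -0.38 ± 0.17 (adjusted p = 0.123), which passed without Chol_CA library 3 (lowest adjusted p of its alternatives 0.0156). In the sucrose diets Ugt2b1 ranged from 481 to 781 CPM (HS) and 680 to 848 CPM (HS_Chol), overlapping NC.

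Ugt2b38 was the lowest member on chow and in CA. It read 14.2, 18.1, 13.0 and 4.83 CPM in NC libraries 0 to 3 and 13.4, 2.83, 1.18 and 0.531 CPM in CA libraries 0 to 3, from 114, 24, 12 and 5 reads. In CA, library 0, with a negative length trend, was the one inside the NC range. With it, CA against NC was -1.50 ± 0.71 (adjusted p = 0.219). In the libraries of positive length trend, which leave it out, the value was -3.34 ± 0.63 and passed (adjusted p = 0.00598). Chol_CA against CA likewise moved from 1.43 ± 0.70 (adjusted p = 0.170) to 3.35 ± 0.65 (adjusted p = 0.00653). Chol_CA libraries 0 to 3 had 5.56, 11.2, 19.2 and 11.1 CPM, inside the NC range except for library 2, HS ranged from 4.27 to 30.6 CPM and HS_Chol from 3.78 to 16.7 CPM. These values are uncertain because of the windows that Ugt2b38 shares with Ugt2b5.

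Ugt2a3, whose human counterpart conjugates bile acids, was set apart by the diet of cholesterol with cholic acid. It read 205, 207, 225 and 220 CPM in NC libraries 0 to 3, 165, 200, 213 and 197 CPM in CA and 144, 107, 138 and 157 CPM in Chol_CA libraries 0 to 3. The Chol_CA libraries lay below every library of the other 4 diets, since HS ranged from 175 to 255 CPM and HS_Chol from 175 to 199 CPM. Ugt2a3 was 1.57-fold lower in Chol_CA than in NC (-0.65 ± 0.13, adjusted p = 0.00111) in all 15 alternatives and 1.42-fold lower than in CA (-0.51 ± 0.13, adjusted p = 0.0104), which was lost with the compared diets fitted alone (adjusted p = 0.0625). CA against NC gave -0.14 ± 0.13 (adjusted p = 0.604). Of the 7 hepatocyte markers, 3 were called lower in Chol_CA against NC and 1 in CA against NC. The medians over all 7 were -0.41 and -0.42. The part of these shifts in the Ugt2a3 value was not tested.

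Ugt3a2 was lower in both diets with cholic acid. It read 318, 283, 321 and 347 CPM in NC libraries 0 to 3, 237, 206, 192 and 139 CPM in CA and 221, 167, 169 and 199 CPM in Chol_CA libraries 0 to 3, so that all 8 libraries with cholic acid lay below all NC libraries. They also lay below all libraries of HS (264 to 390 CPM) and HS_Chol (261 to 314 CPM). The fall was 1.64-fold in CA (-0.71 ± 0.16, adjusted p = 0.00665) and 1.68-fold in Chol_CA (-0.75 ± 0.16, adjusted p = 0.00153) against NC, in all 15 alternatives of each. Chol_CA and CA differed by -0.03 ± 0.16 (adjusted p = 0.915), HS and NC by -0.03 ± 0.15 (adjusted p = 0.958) and HS_Chol and NC by -0.10 ± 0.17 (adjusted p = 0.929).

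The difference between the effect of cholesterol in the sucrose diet (HS_Chol against HS) and in the cholic acid diet (Chol_CA against CA) was tested as an interaction, in which 3.53% of all genes were called higher and 2.47% lower. It was called higher for 4 members and lower for 0. For Ugt1a9 the effects were -0.24 ± 0.70 and -5.01 ± 0.64 and differed by 4.76 ± 0.94 (adjusted p = 0.00355). Ugt1a1 had 0.85 ± 0.44 and -2.05 ± 0.45, a difference of 2.90 ± 0.62 (adjusted p = 0.00706). For Ugt2b34 the values were 0.15 ± 0.20 and -1.25 ± 0.20, differing by 1.40 ± 0.28 (adjusted p = 0.00390). Ugt2b35 had 1.01 ± 0.44 and -1.44 ± 0.44, differing by 2.45 ± 0.62 (adjusted p = 0.0224), which was lost without CA library 2 (adjusted p = 0.0576) and without a filter on low counts. The other 3 calls held in all 23 alternatives. Every alternative kept HS_Chol libraries, all of which had more reads of Gm20528 and of light-strand mitochondrial tRNA genes, as given above. The part of that difference between libraries in these calls was not tested. The first pair of diets holds sucrose and the second cholic acid, so the parts of these 2 in the difference cannot be told apart. Ugt2b5 came near the threshold (0.69 ± 0.21, adjusted p = 0.0567) and Ugt3a2 had a difference of -0.04 ± 0.23 (adjusted p = 0.934). In the libraries of positive length trend 7 members were called higher, adding Ugt2b5, Ugt2b36 and Ugt2a3, and Ugt2b38 was called lower (-4.43 ± 0.90, adjusted p = 0.0170). Of all 12421 genes tested there, 839 were called higher and 577 lower.

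**Figure D4:**
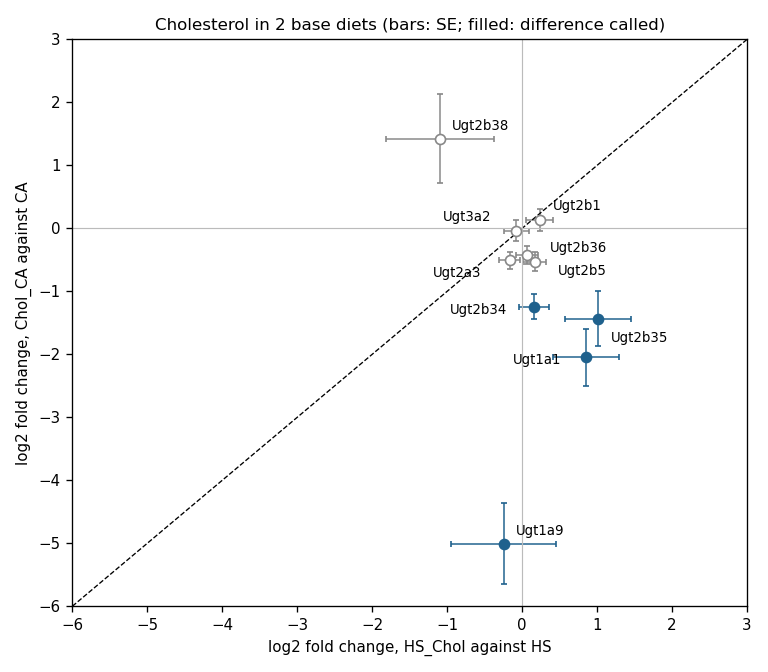
Log2 fold change with cholesterol in the sucrose diet (horizontal) and in the cholic acid diet (vertical), with standard errors, for each gene. On the dashed line both would be equal. Filled points are the 4 genes whose difference passed, all below the line, with Ugt1a9 farthest at -5.01 on the vertical axis.

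The length trend of a library went with the levels of some members within diets. In 4 of 5 diets the libraries of negative trend all lay below those of positive trend for Ugt1a1, Ugt1a9 and Ugt2b35, and in 4 of 5 they all lay above for Ugt3a2. Ugt2b34 had them below in 3 diets, Ugt2a3 in 2, and Ugt2b5 in none in either direction. In the NC diet library 3, the only one of negative trend, had 48.0 CPM of Ugt2b35 where the others had 145 to 178. In the CA diet library 0 had 137 CPM of Ugt1a1 where the others had 435 to 843. Each diet held between 1 and 3 libraries of negative trend, with only 1 in NC, HS_Chol and CA, and what made the libraries differ was not tested. The trend was fitted over 9298 genes, and the share of all genes that split in the same way was not counted. The split can therefore not be read as particular to these members. With the trend as a covariate of the fit, chosen after the data were seen, 4 members were called higher in CA against NC (Ugt1a9, Ugt1a1, Ugt2b34 and Ugt2b35) and 2 lower (Ugt3a2 and Ugt2b1). Of all 12595 genes, 1221 were called higher and 1094 lower in that comparison with the covariate.

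**Figure D5:**
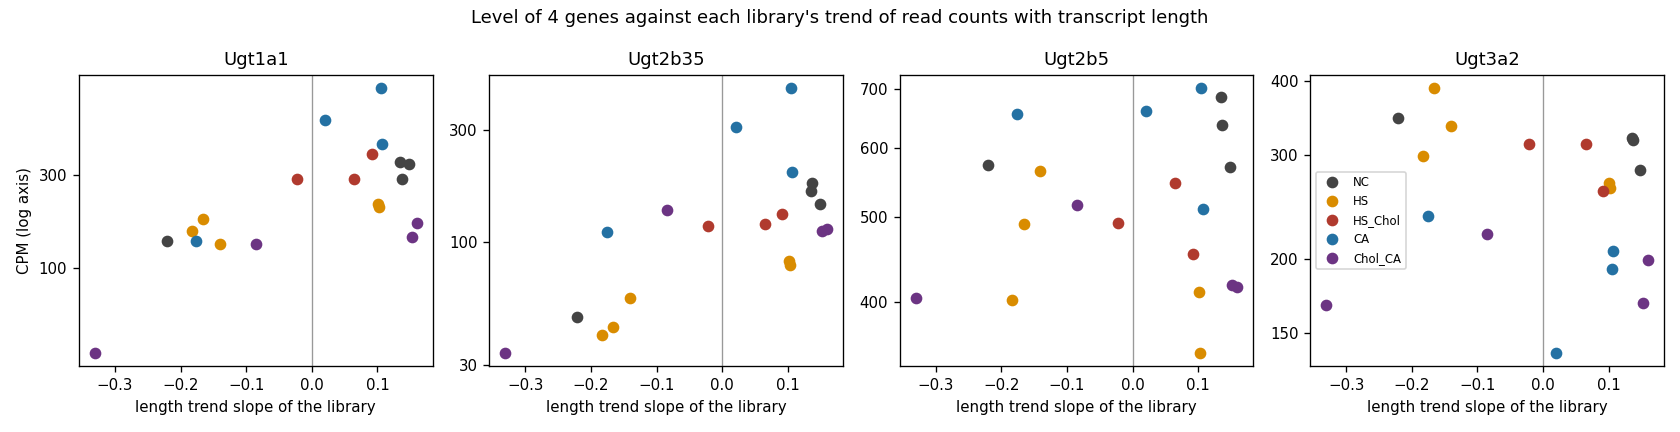
Level in CPM (log axis) of 4 genes against the slope of the length trend of each library, with points coloured by diet. For Ugt1a1 and Ugt2b35 the libraries left of 0 are mostly low within their diet, for Ugt3a2 mostly high, and Ugt2b5 shows neither.

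The genes around the conjugation step moved unequally. Of 15 tested genes that make, carry, remove or break down glucuronic acid or make ascorbate from it, 1 was higher and 2 lower in CA against NC, with a median log2 fold change of 0.01 beside 0.01 over all genes. They were Cryl1, which acts on L-gulonate (1.03 ± 0.16, adjusted p = 0.000295), Gulo, the last enzyme of ascorbate synthesis (-1.83 ± 0.18, adjusted p = 2.48e-06), and Rgn, the lactonase before it (-0.86 ± 0.24, adjusted p = 0.0268). In Chol_CA against NC 2 were higher and 4 lower, with a median of -0.25. Gusb, the lysosomal enzyme that removes glucuronic acid, rose (0.85 ± 0.15, adjusted p = 0.000231), while Pgm2, a phosphoglucomutase, fell (-0.75 ± 0.13, adjusted p = 0.000253). Pgm1, another phosphoglucomutase, rose (0.93 ± 0.21), and Slc35d2 (-0.49 ± 0.15), Dcxr (-0.87 ± 0.28) and Rgn (-0.74 ± 0.24) fell. Ugdh, which makes UDP-glucuronate, was lower in HS than in NC (-1.53 ± 0.28, adjusted p = 0.0109), at 69.7 ± 12.7 against 201 ± 46.9 CPM, and read 296 ± 147 CPM in CA.

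Among 10 transporters listed as possible carriers of conjugates in or out of hepatocytes, 4 were higher and 2 lower in CA against NC, with a median of 0.28. Abcb1a, an export pump of the canalicular membrane (4.93 ± 0.50, adjusted p = 3.00e-06), Slco1a4 (2.81 ± 0.43, adjusted p = 0.000244), Abcc4 (3.18 ± 0.52) and Abcc3, a basolateral exporter of glucuronides (1.02 ± 0.30, adjusted p = 0.0334), rose. The uptake carriers Slco1a1 (-3.90 ± 0.73) and Slco1b2 (-0.80 ± 0.20) fell. In Chol_CA against NC 0 were higher and 2 lower, Slco1b2 (-0.82 ± 0.20, adjusted p = 0.00399) and Slco1a4 (-1.35 ± 0.43, adjusted p = 0.0250), with a median of -0.42. In Chol_CA against CA 4 fell (Slco1a4, Abcb1a, Abcc4 and Abcc3) and Slco1a1 rose. Abcc3 read 359 ± 42.9 CPM in NC, 83.7 ± 28.7 in HS, 476 ± 76.8 in HS_Chol, 726 ± 347 in CA and 247 ± 56.7 CPM in Chol_CA, and its interaction of 4.06 ± 0.43 (adjusted p = 6.12e-06) had the sign of that of Ugt1a1.

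Of 11 genes of heme synthesis, heme breakdown and bilirubin handling, 3 were higher and 1 lower in CA against NC, with a median of 0.57. Gsta4 (2.22 ± 0.31, adjusted p = 9.68e-05), Gsta2 (2.43 ± 0.49) and Gsta1 (5.36 ± 1.08), glutathione transferases that also bind bilirubin or related molecules, rose, and Alas2, the heme synthesis enzyme of red cell precursors, fell (-1.55 ± 0.24, adjusted p = 0.000292). With cholesterol added, Chol_CA against NC had 2 higher and 3 lower, with a median of 0.24. Hmox1, which opens the heme ring (2.40 ± 0.35, adjusted p = 3.22e-05), and Blvra, which makes bilirubin (0.99 ± 0.24), rose, while Fabp1 (-1.70 ± 0.24, adjusted p = 2.87e-05), Gsta3 (-1.15 ± 0.19) and Alas2 (-0.94 ± 0.24) fell. Ugt1a1, which acts on bilirubin, is described above.

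Of 12 target genes used to index nuclear receptors and the antioxidant response, 5 were higher and 0 lower in CA against NC, with a median of 0.58. These were Cyp2c55 (4.93 ± 0.47, adjusted p = 1.31e-06), Gstm3 (5.88 ± 0.61, adjusted p = 4.06e-06), Cyp2b10 (6.02 ± 0.68), Cyp3a11 (2.08 ± 0.28) and Nqo1 (2.41 ± 0.44). In Chol_CA against CA 0 were higher and 10 lower, with a median of -2.05. In Chol_CA against NC 1 was higher, Gstm3, and 5 were lower, among them Cyp4a10 (-5.63 ± 0.54, adjusted p = 5.81e-07) and Cyp4a14 (-8.09 ± 0.85, adjusted p = 1.49e-06), targets of the fatty acid receptor Ppara, with a median of -0.62. The other lower ones were Cyp2b10 (-4.63 ± 1.29), Cyp2c55 (-1.58 ± 0.44) and Gclc (-0.74 ± 0.17). HS against NC had 4 lower (Cyp3a11, Cyp4a14, Gclc and Cyp2c55) and 0 higher. Among 13 regulators named for Ugt genes, Nr1i2, the receptor PXR, rose in CA (0.84 ± 0.13, adjusted p = 0.000337), while Cebpa (-1.07 ± 0.12, adjusted p = 6.33e-06) and Nr1h4, the bile acid receptor FXR (-0.81 ± 0.15), fell. Chol_CA against NC had 0 higher and 3 lower, Cebpa (-0.71 ± 0.12, adjusted p = 0.000117), Nr1h4 (-0.93 ± 0.15, adjusted p = 0.000122) and Ahr (-1.16 ± 0.28). The medians of the regulators were -0.27 in CA and -0.40 in Chol_CA.

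Genes whose liver level is known to differ between the sexes moved widely on cholic acid. Of 13 male-biased genes, 0 were higher and 9 lower in CA against NC, with a median of -2.56, led by Susd4 (-6.94 ± 0.56, adjusted p = 2.97e-07) and Mup7 (-7.43 ± 0.89, adjusted p = 2.08e-05). Of 9 female-biased genes tested, 7 were higher and 1 lower (Cyp17a1, -1.80 ± 0.35), with a median of 2.82, led by Cyp2b9 (8.29 ± 0.69, adjusted p = 3.28e-07) and Cyp2a4 (9.35 ± 0.83, adjusted p = 5.73e-07). Chol_CA against NC had 4 male-biased genes lower and 0 higher (Susd4, -3.55 ± 0.41, Cyp4a12a, -1.95 ± 0.39, Mup7, -3.06 ± 0.65, and Cyp2d9, -0.87 ± 0.19), with a median of -0.87. There 3 female-biased genes were lower and 0 higher (Cyp17a1, -1.99 ± 0.36, Acot4, -1.41 ± 0.27, and Acot3, -3.76 ± 1.04), with a median of -0.93.

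The genes with the closest pattern to each member were found by Pearson correlation of log2 CPM over the 20 libraries, among 8994 genes with at least 5 CPM on average, and are given as a description, since all points share depth, diet and length trend. Ugt1a1 was most like Hp1bp3 (r = 0.96) and Agpat3 (0.94). Ugt1a9 was most like Net1 (0.93) and Gclm (0.93), a subunit of the enzyme that starts glutathione synthesis. Ugt2b34 was closest to Nmt2 (0.95) and Suclg2 (0.93), and Ugt2b35 to Picalm (0.94) and Prpf19 (0.94). Ugt2a3 was closest to Bbox1 (0.94), the last enzyme of carnitine synthesis, and Uqcrc2 (0.94), a subunit of respiratory complex III, and Ugt3a2 to Phyh (0.95), a peroxisomal enzyme, and Pon1 (0.94). Ugt2b5 went with Akr1c19 (0.84) and Ikbkg (0.82), and Ugt2b36 with Cept1 (0.86) and Htatip2 (0.85). Ugt2b1 was nearest to Mup1 (0.85), a major urinary protein, and A2ld1 (0.84), and Ugt2b38 to C8b (0.93), a complement component, and Mup6 (0.92).

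Among the members themselves, Ugt1a9 and Ugt2b34 had an r of 0.90, Ugt1a1 and Ugt2b35 of 0.83, Ugt1a1 and Ugt2b34 of 0.83, and Ugt1a1 and Ugt1a9 of 0.78. Ugt2b1 and Ugt3a2 had an r of 0.79. Ugt2b38 had a negative r with Ugt1a9 (-0.54), Ugt2b34 (-0.54) and Ugt2b35 (-0.53).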

How the data were processed

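Per the submitters' processing notes the build was mm10 and STAR 2.6.1c was used, and per the series' design text STAR also counted reads per gene against an Ensembl annotation. Libraries were stranded total RNA read as single 50 bp ends, per the labels' protocols. The deposited values are raw counts. Which strand was counted and the annotation release are not given in the sources used here. Of 23 columns, 20 were matched to 5 diets by name and 3 matched no label and were not used. HS_Chol had 3 columns for 4 labelled samples, and for 1 sample titled HS the diet field reads normal chow, so each HS library was left out in turn. Total reads per library had a median of 7639777.

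The test of these counts was the quasi-likelihood test of edgeR 4.0.16 (R 4.3.3, robust), after TMM normalization and filterByExpr (12595 genes kept), in 1 model of the 20 libraries that gave each diet its mean, and Benjamini-Hochberg adjustment over all genes tested at 0.05. DESeq2 1.42.0 was an alternative. CPM were scaled by effective library size, except the summed markers and the 5 CPM limit of the length trend, which used total reads. After ±, a log2 fold change has its standard error and a CPM value the standard deviation between libraries. The length trend is the slope of a library's log2 deviations from each gene's mean over the 20 libraries on log2 transcript length. It was fitted over 9298 genes of at least 5 CPM. Transcripts, coordinates and opposite strands come from GENCODE M21 (GRCm38), and promoters from RefSeq (GRCm38.p6), compared with Biopython 1.88. The test was tried on simulated data.

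The members and all 17 gene lists were chosen with earlier results of these data known, and lists are described by counts and medians only. From each list other than the 9 of cell type markers, which are given as sums and counts, the text names the 2 genes with the smallest adjusted p in CA and in Chol_CA against NC, and those called there where they number 5 or fewer. The levels of Ugdh and Abcc3 in all diets were chosen after their values were seen.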

Additional observations from a re-analysis of the deposited data

Results flagged for a closer look

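The effect of cholesterol differed between the sucrose and cholic acid base diets for 4 genes by the test of that difference (edgeR, 1 of 7 comparisons). The differences were 4.76 for Ugt1a9, 2.90 for Ugt1a1, 1.40 for Ugt2b34 and 2.45 for Ugt2b35 on the log2 scale. Of 40 groups of a gene and a diet with 4 or 5 libraries, 3 had a library far from the others by Dixon's criterion, where chance gives about 1 in 20. They were Ugt2b5 at 516 CPM in Chol_CA library 0, Ugt2b36 at 707 CPM in the same library, and Ugt2b36 at 756 CPM in NC library 2.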

How the results depend on the processing

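No paired analysis was possible because the columns carry no replicate number of the labels. Over 1130 values of members under alternatives, 1057 kept their side of the threshold, 32 lost a call, 41 gained one and 0 reversed a call. Of the 1057, 1013 kept their sign and 44 did not, all 44 in 15 differences that were not called. Members called changed as follows, and the cause of the changes was not tested. In HS against NC 0 lower became 2 by DESeq2 and 2 in the libraries of positive length trend, and 0 to 1 without single libraries. In HS_Chol against NC 0 lower became 1 by DESeq2, 1 in the libraries of positive length trend and 1 with the trend as a covariate, and 0 to 1 without single libraries. In CA against NC 1 higher became 0 without a low-count filter, 2 with a stricter one, 2 by DESeq2, 0 with the compared diets alone, 4 in the libraries of positive length trend and 4 with the covariate, and 0 to 2 without single libraries. There 1 lower became 2 by DESeq2, 3 in the libraries of positive length trend and 2 with the covariate, and 1 to 2 without single libraries. In Chol_CA against NC 6 lower became 7 in the libraries of positive length trend (with Ugt2b36) and 3 to 7 without single libraries, with 3 without NC library 0 or 2 or Chol_CA library 1. In HS_Chol against HS 0 higher became 2 with the compared diets alone (Ugt1a1 and Ugt2b35). In Chol_CA against CA 0 higher became 1 in the libraries of positive length trend and 0 to 1 without single libraries, and 7 lower became 3 with the compared diets alone. For the interaction 4 higher became 7 and 0 lower became 1 in the libraries of positive length trend, and 0 to 1 lower without single libraries.

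Counts over all genes moved both ways. HS against NC went from 27 higher and 55 lower to 186 and 193 in the libraries of positive length trend, where CA against NC went from 657 and 581 to 1521 and 1445. With the covariate Chol_CA against NC went from 1885 and 1178 to 2226 and 2055, Chol_CA against CA from 1693 and 983 to 2237 and 1997, and HS_Chol against HS from 201 and 82 to 443 and 250. HS_Chol against NC went from 216 and 71 to 376 and 241, and the interaction from 445 and 311 to 839 and 577, in the libraries of positive length trend. Counts fell without single libraries too, in HS against NC to 6 higher and 29 lower (NC library 2), in HS_Chol against NC to 36 lower (HS_Chol library 0), in CA against NC to 376 higher (NC library 0), in HS_Chol against HS to 33 lower (HS_Chol library 0), in Chol_CA against CA to 960 higher (CA library 2) and in the interaction to 130 lower (CA library 2). With the compared diets alone Chol_CA against NC had 701 lower and Chol_CA against CA 1063 higher and 523 lower, and a stricter filter left 108 higher in HS_Chol against NC and 100 in HS_Chol against HS. CPM from total reads moved 3 diet means of members by more than 1 SD, to 197 for Ugt2a3 in NC, 503 for Ugt2b5 in Chol_CA and 217 for Ugt3a2 in Chol_CA. Depth limits Ugt1a9 in Chol_CA and Ugt2b38 in CA, with 5 reads in 1 library each.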
